A study of Mus musculus with 6 samples.

Results

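Interferon signalling and nucleic acid sensing were followed through 39 genes, chosen by gene name from the deposited table of transcript levels, in which the transcripts sum to 21801 genes. All 39 were found, each under a single gene identifier. They comprise 4 interferon receptor chains, 10 kinases and transcription factors, 3 feedback inhibitors, 4 sensors of nucleic acid, 6 adaptors and modifiers of sensing, and 12 interferon-induced effectors. The cells were B16F10-OVA, a mouse melanoma line engineered to express ovalbumin, a chicken egg protein used as a model antigen. 3 libraries came from cells grown for 5 days with 50 µM Ac4ManNAz and passaged on day 3. Ac4ManNAz is a peracetylated mannosamine that carries an azide, which cells convert to azido sialic acid on their surface. The other 3 libraries came from untreated cells of the same line, which carry the same ovalbumin transgene. The comparison asks how far the labelling agent itself changes transcription. Whether the 3 libraries of a condition were grown as separate cultures is not stated in the labels. The p-values therefore measure only the spread between libraries, which may be technical.

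Cells detect foreign or misplaced nucleic acid with cytosolic sensors. RIG-I-like receptors bind double-stranded RNA and signal through MAVS, and cGAS binds DNA and signals through STING. Both routes activate the kinases TBK1 and IKKε, which phosphorylate IRF3 and IRF7 and so switch on interferon genes. Secreted type I interferon binds IFNAR1 and IFNAR2. The kinases JAK1 and TYK2 then activate STAT proteins, which join IRF9 to bind a response element in the promoters of induced genes. Interferon gamma uses the receptor chains IFNGR1 and IFNGR2 with JAK1 and JAK2. In melanoma cells this pathway governs antigen presentation and growth arrest.

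The response element is shown first because it was found in most of the matched induced effectors, whose median within-group SD on the log2 scale was the largest of the functional groups. Its core was searched as GAAA, 2 bases of any kind and GAAA again, on either strand, from 250 bases before to 50 bases after each annotated start, in RefSeq promoter windows of build GRCm38.p6. Cores that overlap were counted separately. Of the 39 genes, 35 were matched to a window, all but Usp18, Dhx58, Sting1 and Parp9. The core was present in 8 of 11 induced effectors, or 72.7%, and in 13 of all 35 matched genes, or 37.1%, against 3.99% of all 27025 symbols in the table. It was found in 0 of 4 receptors and 0 of 5 matched adaptors, and in 2 of 3 matched sensors, Ifih1 and Eif2ak2. The core of the gamma-activated site, TTCNNNGAA, which reads the same on both strands, was present in 11 of the 35, or 31.4%, against 9.55% of symbols. A match is a description of the sequence and does not show that a factor binds there. A link between a match and the spread of a gene between libraries was not tested. The 5 most abundant induced genes with a core are printed 5′ to 3′ on the strand of the gene, with the cores in capitals, since they show how spacing and number of cores differ among induced effectors. Ifitm2 has 1 core, starting 46 bases upstream (chr7:140955912-140956211, minus strand). Bst2 has 2 cores that overlap (chr8:71537423-71537722, minus strand). Ifit3 (chr19:34583279-34583578, plus strand) and Ifit1 (chr19:34640639-34640938, plus strand) each have 2 separate cores before the start. In Ifitm3 (chr7:141010695-141010994, minus strand) both cores lie just after the annotated start.
Ifitm2: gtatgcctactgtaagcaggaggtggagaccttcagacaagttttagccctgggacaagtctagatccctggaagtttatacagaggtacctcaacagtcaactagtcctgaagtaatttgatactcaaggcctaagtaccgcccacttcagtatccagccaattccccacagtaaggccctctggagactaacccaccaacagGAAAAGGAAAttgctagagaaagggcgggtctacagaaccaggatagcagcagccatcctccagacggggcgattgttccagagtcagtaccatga
Bst2: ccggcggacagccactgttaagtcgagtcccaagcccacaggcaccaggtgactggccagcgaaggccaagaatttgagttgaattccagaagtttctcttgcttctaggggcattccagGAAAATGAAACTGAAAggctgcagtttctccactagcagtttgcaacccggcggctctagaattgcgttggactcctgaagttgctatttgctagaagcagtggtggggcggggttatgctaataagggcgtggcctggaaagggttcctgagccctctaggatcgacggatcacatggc
Ifit3: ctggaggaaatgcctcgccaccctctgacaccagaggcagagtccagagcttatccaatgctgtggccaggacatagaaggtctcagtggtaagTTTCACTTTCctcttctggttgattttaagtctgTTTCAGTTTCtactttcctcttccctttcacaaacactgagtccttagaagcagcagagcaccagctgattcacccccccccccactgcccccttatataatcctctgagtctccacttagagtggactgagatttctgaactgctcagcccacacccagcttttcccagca
Ifitm3: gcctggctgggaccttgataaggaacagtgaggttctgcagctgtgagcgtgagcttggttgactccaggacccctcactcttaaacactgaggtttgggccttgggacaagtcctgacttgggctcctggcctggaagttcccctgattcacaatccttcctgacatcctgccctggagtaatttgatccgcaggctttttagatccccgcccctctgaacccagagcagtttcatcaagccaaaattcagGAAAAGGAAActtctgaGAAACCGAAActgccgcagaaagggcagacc
Ifit1: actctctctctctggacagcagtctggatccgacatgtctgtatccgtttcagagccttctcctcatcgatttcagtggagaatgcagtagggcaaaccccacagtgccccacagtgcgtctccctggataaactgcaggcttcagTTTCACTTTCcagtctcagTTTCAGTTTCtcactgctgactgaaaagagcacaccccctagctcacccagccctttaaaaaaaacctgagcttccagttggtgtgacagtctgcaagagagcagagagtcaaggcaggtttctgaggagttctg

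Levels are given as FPKM, fragment counts scaled by transcript length and library size, summed over the transcripts of a gene. The libraries listed 13912 to 18974 genes above 0 FPKM. The melanocytic genes that mark the line were high throughout, with Pmel, a melanosome matrix protein, at 4760, 3769 and 4614 FPKM in the Ac4ManNAz libraries against 4511, 4620 and 3806 FPKM in the untreated libraries. Tyr, which encodes the tyrosinase that starts pigment synthesis, averaged 170 ± 7.43 FPKM in treated and 161 ± 38.8 FPKM in untreated cells (SD over 3 libraries, here and below). Mitf, the master regulator of the lineage, averaged 167 ± 14.6 FPKM in treated and 172 ± 44.5 FPKM in untreated cells. Of 8 leukocyte markers, 7 were under 0.5 FPKM in every library. The exception was Lyz2, a lysozyme gene of myeloid cells, at 1.74, 3.96 and 3.10 FPKM in treated against 3.76, 2.67 and 1.70 FPKM in untreated libraries. Mlana, a melanosomal antigen, was 1269, 158 and 935 FPKM in treated against 976, 1138 and 856 FPKM in untreated libraries, so Ac4ManNAz replicate 2 lay apart from the other 5. Markers of keratinocytes were under 0.5 FPKM in 4 of 4 cases, of endothelium in 3 of 4 and of fibroblasts in 4 of 6.

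After 5 days of Ac4ManNAz, none of the pathway genes passed the test for a difference from untreated cells. limma was run on log2(FPKM + 1) for the 9925 genes averaging 1 FPKM or more, with Benjamini-Hochberg adjustment at 0.05. Of the 39 pathway genes, 33 passed this filter, which looks at the mean of all libraries and not at either group. Irf2, Irf7, Socs1, Dhx58, Ikbke and Trim25 did not. limma called 0 of the 33 (smallest adjusted p 0.9998), where it called 0% of all tested genes. At an unadjusted p under 0.05 there was 1 pathway gene, Tbk1, where 1.78% of all tested genes reached that level. For 0 of the 33 did the treated libraries lie all above or all below the untreated ones. Over all tested genes, 2.1% lay all above and 3.71% all below. For 24 of the 33 the whole 95% interval fell inside a 2-fold difference in FPKM + 1, against 91% of all tested genes. For genes of low level this bound allows more than a 2-fold difference in FPKM itself. For the remaining 9 (Usp18, Ifih1, Tbk1, Isg15, Ifit1, Ifit3, Rsad2, Gbp2 and Ifitm3) differences beyond 2-fold in FPKM + 1 lay inside the interval.

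**Figure D1:**
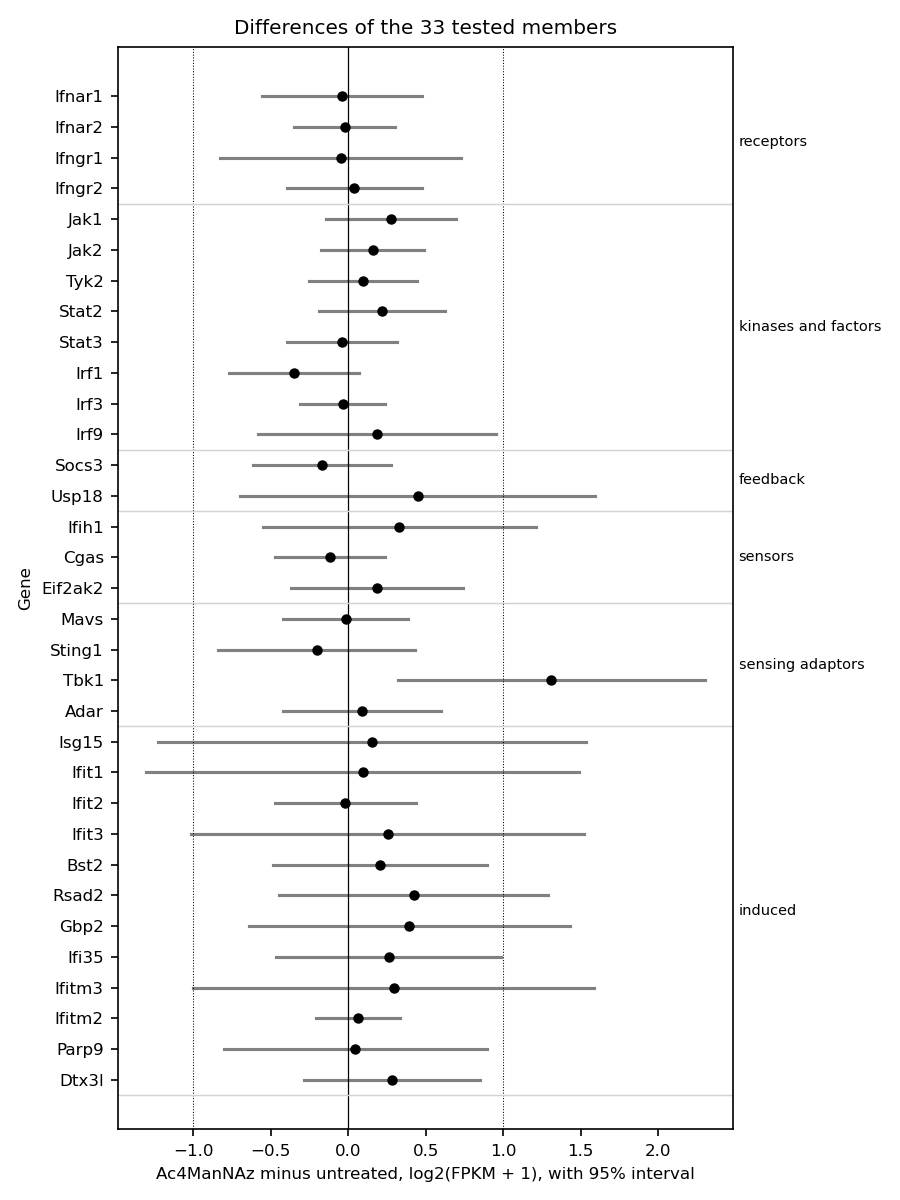
Difference of each of the 33 tested genes, Ac4ManNAz minus untreated, on the log2(FPKM + 1) scale (points), with its 95% limma interval (lines). Dotted lines mark 2-fold in FPKM + 1. The intervals of 24 genes lie within 2-fold, and that of Tbk1, from 0.32 to 2.30, is alone in not reaching 0.

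In mean log2(FPKM + 1), 22 of the 33 averaged higher and 11 lower in treated cells, where 49.6% of all tested genes averaged higher. Their median log2 difference was 0.10, against -0.001 over all tested genes. Among the 12 induced effectors, 11 averaged higher on this scale with a median of 0.23. Of these 11, Ifit1 and Parp9 had lower mean FPKM in treated cells (9.07 against 9.11 and 4.21 against 4.44 FPKM). The counts of 22 of 33 and 11 of 12 rest on single libraries. Without untreated replicate 3, 12 of 35 genes averaged higher with a median of -0.08, and 3 of the 12 effectors did so with a median of -0.18. Without Ac4ManNAz replicate 2, 18 of 33 genes averaged higher with a median of 0.01, and 5 of the 12 effectors with a median of -0.01. Without untreated replicate 1 or Ac4ManNAz replicate 1, all 12 effectors averaged higher, with medians of 0.58 and 0.48.

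The induced effectors differed more between libraries of 1 condition than between the condition means. Isg15, a ubiquitin-like protein that is conjugated to other proteins in the response, was listed at 1.64, 7.76 and 3.61 FPKM in Ac4ManNAz replicates 1 to 3, against 6.88, 3.81 and 1.04 FPKM in untreated replicates 1 to 3. Ifit1, which binds viral RNA that lacks the host cap modification, had 3.98, 14.6 and 8.62 FPKM in the treated libraries against 16.9, 7.28 and 3.17 FPKM in the untreated ones. Ifit3, a partner of Ifit1, had 7.51, 26.9 and 15.8 FPKM with the agent against 20.7, 14.9 and 5.85 FPKM without it. In all 3 genes Ac4ManNAz replicate 2 and untreated replicate 1 were the highest libraries, and Ac4ManNAz replicate 1 and untreated replicate 3 the lowest. Within the untreated group alone the highest library exceeded the lowest 6.64-fold for Isg15, 5.33-fold for Ifit1 and 3.54-fold for Ifit3. The ratio of group means, treated over untreated, was 1.11 for Isg15, 0.995 for Ifit1 and 1.21 for Ifit3. The promoters of all 3 contain at least 2 copies of the response element core. Whether the number of cores has a part in this spread was not tested.

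**Figure D2:**
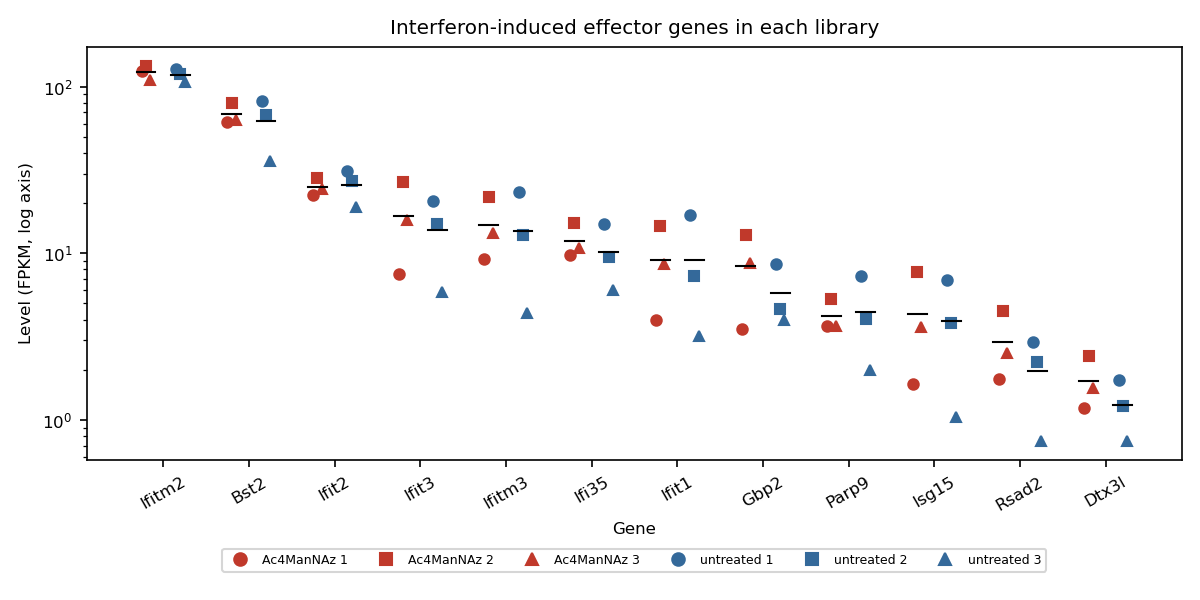
Level of each of the 12 induced effectors in each library (FPKM, log axis), with Ac4ManNAz libraries in red left of untreated libraries in blue. Symbols mark replicate numbers and short lines the group means. Untreated replicate 3 is the lowest library in 11 of the 12 genes.

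The same pairs lay at both ends for 8 of the 12 effectors, all but Gbp2, Ifi35, Ifitm2 and Parp9. Ifitm3, a membrane protein that blocks virus entry, had 9.26, 21.8 and 13.2 FPKM in treated against 23.2, 12.9 and 4.39 FPKM in untreated libraries. Gbp2, a GTPase induced mainly by interferon gamma, had 3.49, 12.9 and 8.79 FPKM in treated against 8.61, 4.65 and 3.99 FPKM in untreated libraries. Its lowest library was Ac4ManNAz replicate 1, and its 2 highest were Ac4ManNAz replicates 2 and 3. Rsad2, which encodes viperin, an enzyme that makes a chain-terminating nucleotide, had 1.77, 4.47 and 2.52 FPKM in treated against 2.94, 2.22 and 0.746 FPKM in untreated libraries. With Dtx3l it had the smallest p-values of the group. Its log2 difference was 0.42 ± 0.37 (SE), with a 95% interval from -0.44 to 1.29 and an unadjusted limma p of 0.288. That difference was 0.08 without untreated replicate 3, 0.15 without Ac4ManNAz replicate 2, 0.67 without untreated replicate 1 and 0.64 without Ac4ManNAz replicate 1. Dtx3l, a ubiquitin ligase that pairs with PARP9, had 1.18, 2.42 and 1.56 FPKM in treated against 1.74, 1.21 and 0.750 FPKM in untreated libraries. Its log2 difference of 0.28 ± 0.24 had an interval from -0.29 to 0.85 and an unadjusted limma p of 0.278. Without Ac4ManNAz replicate 2 it was 0.11, without untreated replicate 3 0.12, without untreated replicate 1 0.44 and without Ac4ManNAz replicate 1 0.43. Parp9 itself, an ADP-ribosyltransferase whose gene lies beside Dtx3l, averaged 4.21 ± 0.970 FPKM in treated and 4.44 ± 2.68 FPKM in untreated cells. Ifi35, an interferon-induced leucine zipper protein, averaged 11.9 ± 2.87 FPKM in treated and 10.2 ± 4.55 FPKM in untreated cells.

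The most abundant effectors varied least. Ifitm2, at 124, 133 and 110.2 FPKM in treated against 127, 119 and 106 FPKM in untreated libraries, was the most abundant of the 39 genes, and its highest library exceeded its lowest 1.25-fold. Ifit2, another RNA-binding member of the IFIT family, had 22.3, 28.3 and 24.3 FPKM in treated against 31.1, 27.0 and 18.9 FPKM in untreated libraries, a 1.65-fold range. Bst2, which encodes tetherin, a protein that holds budding virus particles at the cell surface, had 61.6, 79.7 and 63.0 FPKM in treated against 82.0, 67.9 and 35.9 FPKM in untreated libraries. For Bst2 the low value of untreated replicate 3 stood apart from the other 5 libraries. The 95% intervals of Ifitm2 and Ifit2 lay between -0.47 and 0.43 on the log2 scale, while those of Isg15, Ifit1, Ifit3, Rsad2, Gbp2 and Ifitm3 reached beyond 2-fold.

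**Figure D3:**
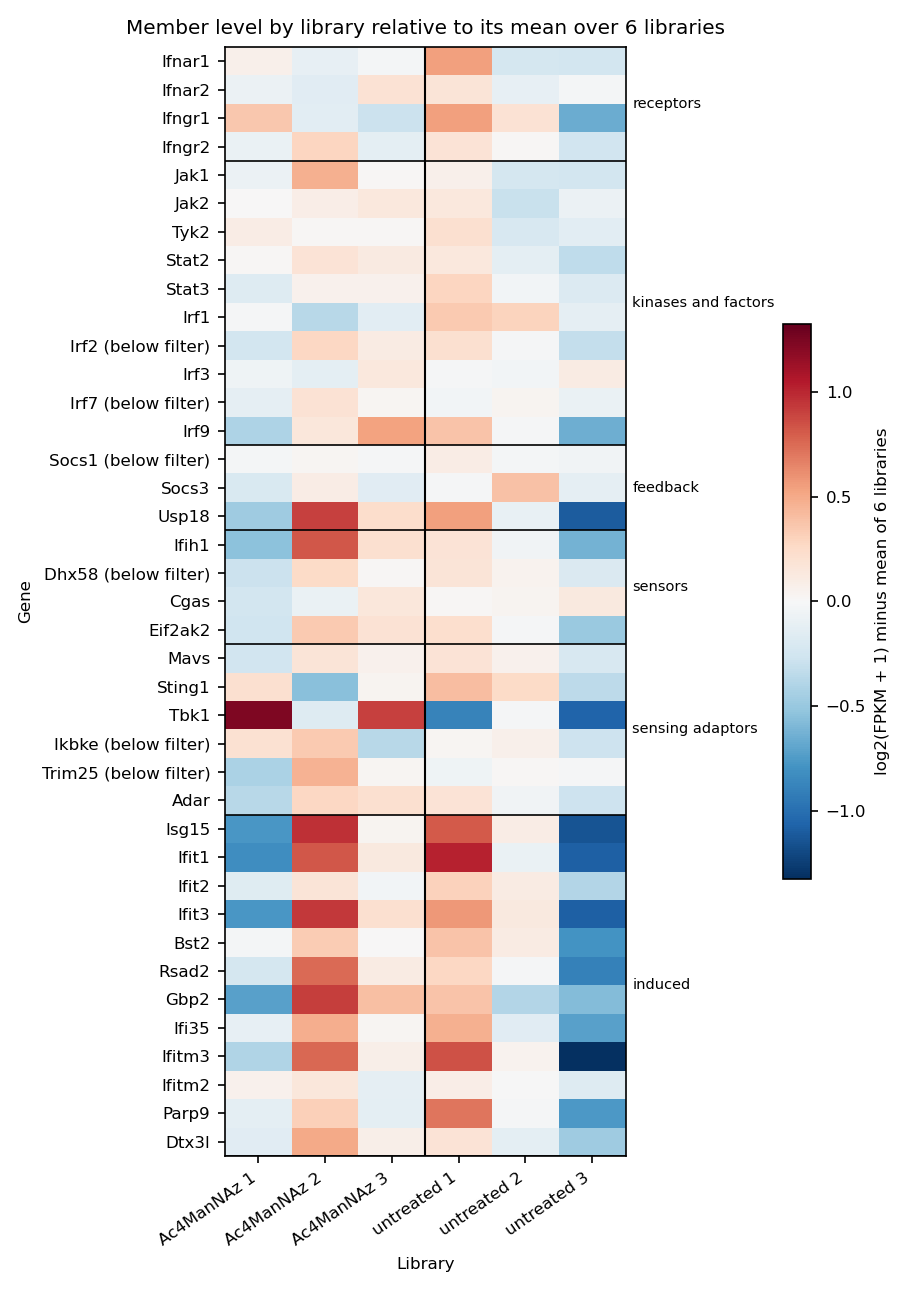
Level of all 39 genes in each library relative to the mean of that gene over the 6 libraries (log2(FPKM + 1), red above and blue below), with Ac4ManNAz libraries left of the black line. Within the induced effectors the second Ac4ManNAz and the first untreated column are mostly red, and the first Ac4ManNAz and the last untreated column mostly blue.

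Counts of library order describe how widely this held. Ac4ManNAz replicate 2 and untreated replicate 1 were together the 2 highest libraries for 11 of the 12 effectors and for 17 of the 33 tested genes, against 16% of all tested genes. Ac4ManNAz replicate 1 and untreated replicate 3 were together the 2 lowest for 9 of the 12 and for 16 of the 33, against 13.6% of all tested genes. Both pairs stood at the ends for 8 of the 12 and for 11 of the 33, against 5.41% of all tested genes. Untreated replicate 3 alone was the lowest library for 22 of the 33, against 27.3% of all tested genes. The pairs were picked after these values were seen, so the counts are a description and carry no test. The median deviation of the 12 effectors from their mean over all libraries was -0.20, 0.62 and 0.06 on the log2 scale in Ac4ManNAz replicates 1 to 3, against 0.42, -0.01 and -0.78 in untreated replicates 1 to 3. Over all tested genes it stayed between -0.07 and 0.07. The median within-group SD was 0.55 for the effectors and 0.20 for all tested genes on the same scale.

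Some other library values moved with this order and others did not. Of 8 melanocytic genes, 2 had both pairs at the ends, Dct and Mitf. Dct, an enzyme of melanin synthesis, had 402, 693 and 516 FPKM in treated against 700.3, 471 and 386 FPKM in untreated libraries. For Mitf the highest library exceeded the lowest 1.62-fold. Pmel and Mlana were lowest in Ac4ManNAz replicate 2 and highest in Ac4ManNAz replicate 1, and Sox10, a lineage factor, was highest in untreated replicate 3. Gapdh, a glycolytic enzyme of all cells, was listed at 0.691, 10.4 and 0.738 FPKM in treated against 6.20, 0.135 and 0.816 FPKM in untreated libraries. Its 2 high libraries were those highest for the effectors. Gapdh is used by all cells, so its values under 1 FPKM may be failed estimates. The share of summed FPKM from mitochondrially encoded genes was 1.77%, 1.97% and 1.78% in treated against 2.15%, 1.47% and 1.43% in untreated libraries. It was highest in the same pair, but its 2 lowest libraries were untreated replicates 2 and 3. The summed level of the 8 leukocyte markers was 1.92, 4.35 and 3.74 FPKM in treated against 4.05, 2.87 and 2.16 FPKM in untreated libraries, most of it from Lyz2, also with these pairs at the ends. The part of any of these in the result was not tested.

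**Figure D4:**
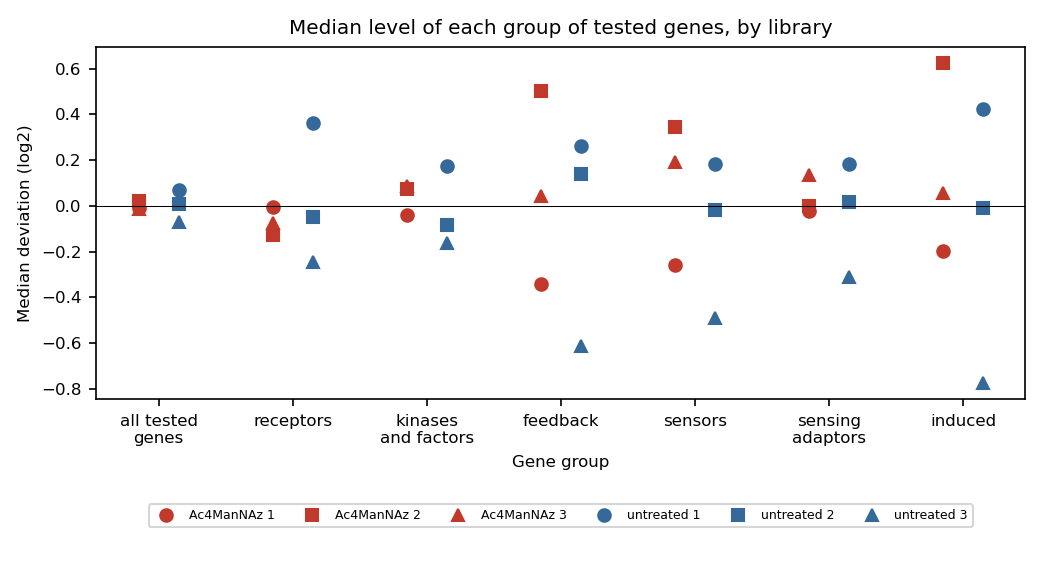
Median deviation of the tested genes of each functional group from their mean over 6 libraries (log2), by library, with Ac4ManNAz libraries in red left of untreated libraries in blue. The induced effectors span -0.78 to 0.62, and all tested genes -0.07 to 0.07.

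The 4 receptor chains were expressed and showed no difference that passed. Ifnar1, the signalling chain of the type I receptor, had 21.3, 18.6 and 19.9 FPKM in treated against 29.9, 17.0 and 17.0 FPKM in untreated libraries. Untreated replicate 1 was high and the other 5 libraries lay close together. The log2 difference was -0.04 ± 0.22 (95% interval -0.56 to 0.47, unadjusted limma p 0.849). Ifnar2, the binding chain, averaged 13.1 ± 1.77 FPKM in treated and 13.3 ± 1.44 FPKM in untreated cells. Ifngr1, the binding chain for interferon gamma, averaged 3.01 ± 0.971 FPKM in treated and 3.32 ± 1.65 FPKM in untreated cells. Ifngr2, its signalling chain, had 2.94, 4.10 and 2.84 FPKM in treated against 3.76, 3.24 and 2.52 FPKM in untreated libraries, a log2 difference of 0.04 ± 0.18 (95% interval -0.40 to 0.47, unadjusted limma p 0.838). FPKM is scaled per length, so levels can be set side by side: the type I chains were both above both gamma chains in every library.

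Among the kinases and transcription factors, 8 of 10 genes were tested and 5 of the 8 averaged higher in treated cells. Jak1, the kinase shared by both receptor types, had 11.9, 17.95 and 12.8 FPKM in treated against 13.3, 10.6 and 10.5 FPKM in untreated libraries. Ac4ManNAz replicate 2 was high and the other 5 libraries overlapped. A log2 difference of 0.27 ± 0.18 was obtained, with a 95% interval from -0.15 to 0.70 and an unadjusted limma p of 0.167. It was 0.11 without Ac4ManNAz replicate 2. Jak2, the second kinase of the gamma receptor, averaged 10.7 ± 0.516 FPKM in treated and 9.55 ± 1.58 FPKM in untreated cells. Tyk2, the second kinase of the type I receptor, averaged 7.49 ± 0.286 FPKM in treated and 7.01 ± 1.29 FPKM in untreated cells. Stat2, which acts in the type I complex, was low, at 1.44, 1.73 and 1.62 FPKM in treated against 1.65, 1.20 and 0.905 FPKM in untreated libraries. Stat3, which also serves cytokines of the IL-6 family, averaged 15.9 ± 1.47 FPKM in treated and 16.5 ± 3.00 FPKM in untreated cells. Irf9, the DNA-binding partner of STAT2, ranged from 3.68 to 7.96 FPKM in treated and from 2.97 to 7.08 FPKM in untreated libraries.

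Irf1, a factor induced by interferon gamma that promotes antigen presentation, had 4.82, 3.56 and 4.34 FPKM in treated against 6.48, 6.25 and 4.43 FPKM in untreated libraries. Its order differed from that of the effectors, since Ac4ManNAz replicate 2 was its lowest library. Its log2 difference was -0.35 ± 0.18, with a 95% interval from -0.77 to 0.07 and an unadjusted limma p of 0.0893. With a library left out it ranged from -0.50 without untreated replicate 3 to -0.25 without Ac4ManNAz replicate 2. In the first of these runs the unadjusted limma p was 0.0268 and the adjusted p 0.9999. In the second the unadjusted limma p was 0.236, and only the first run gave one under 0.05. The transcripts that made up this level were not the same in all libraries. Irf1-201 was listed at 4.59 FPKM in untreated replicate 2 and at 0 in the other 5 libraries. Its most abundant transcript, Irf1-202, had a log2 difference of -0.13. Irf3, the factor that TBK1 activates, had 15.2, 14.4 and 17.6 FPKM in treated against 15.7, 15.5 and 17.3 FPKM in untreated libraries, the narrowest range of the 33. Irf7, the inducible factor that amplifies interferon production, was listed at 0, 0.245 and 0.107 FPKM in treated against 0.0580, 0.113 and 0.0224 FPKM in untreated libraries. Irf2, which counters IRF1 at shared sites, ranged from 0.182 to 0.691 FPKM in treated and from 0.123 to 0.621 FPKM in untreated libraries. Irf2 and Irf7 were too low to be tested.

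The feedback inhibitors parted in level and in pattern. Usp18, which removes ISG15 from proteins and blocks the IFNAR2 chain, had 1.87, 6.45 and 3.69 FPKM in treated against 4.78, 2.70 and 0.848 FPKM in untreated libraries, the order of the effectors. Its highest library exceeded its lowest 7.60-fold, the widest range of the 33. The log2 difference was 0.45 ± 0.49, with a 95% interval from -0.70 to 1.59 and an unadjusted limma p of 0.388. Without untreated replicate 3 it was 0.0053, without Ac4ManNAz replicate 2 0.11, without untreated replicate 1 0.83 and without Ac4ManNAz replicate 1 0.79. Socs3, an inhibitor of JAK kinases that mainly limits IL-6 family signals, had 1.61, 2.23 and 1.71 FPKM in treated against 1.98, 2.93 and 1.77 FPKM in untreated libraries. The fitted log2 difference was -0.17 ± 0.19 (95% interval -0.61 to 0.27, unadjusted limma p 0.397). It was -0.019 without untreated replicate 2, -0.11 without Ac4ManNAz replicate 1, -0.27 without untreated replicate 3, -0.26 without Ac4ManNAz replicate 2 and -0.39 with sample quality weights. Socs1, the main brake on interferon gamma signalling, stayed between 0.191 and 0.232 FPKM in treated and between 0.173 and 0.300 FPKM in untreated libraries.

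The RNA sensors had library orders close to that of the effectors. Ifih1, which encodes the sensor MDA5 for long double-stranded RNA, had 0.614, 3.17 and 1.72 FPKM in treated against 1.67, 1.27 and 0.520 FPKM in untreated libraries, a log2 difference of 0.33 ± 0.37 (95% interval -0.55 to 1.21, unadjusted limma p 0.407). Eif2ak2, which encodes PKR, a kinase that halts translation on binding double-stranded RNA, had 5.87, 9.46 and 8.40 FPKM in treated against 8.63, 7.14 and 4.87 FPKM in untreated libraries. Its log2 difference was 0.19 ± 0.24 (95% interval -0.37 to 0.74, unadjusted limma p 0.457). For both, Ac4ManNAz replicate 2 was highest and untreated replicate 3 lowest. Dhx58, which encodes LGP2, a regulator of the RNA sensors, fell just under the filter at 0.959 ± 0.361 FPKM in treated and 0.968 ± 0.246 FPKM in untreated cells. Cgas, the DNA sensor, had 3.15, 3.62 and 4.43 FPKM in treated against 3.94, 4.03 and 4.35 FPKM in untreated libraries. This sum did not share the order, untreated replicate 3 being its second highest library. Its main transcript, Cgas-202, was lowest in untreated replicate 3 (2.65 FPKM), then in Ac4ManNAz replicate 1 (3.15 FPKM), and highest in Ac4ManNAz replicate 3 (4.08 FPKM). Cgas-201 was listed at 1.70 FPKM in untreated replicate 3 and at 0 to 0.502 FPKM in the other libraries.

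**Figure D5:**
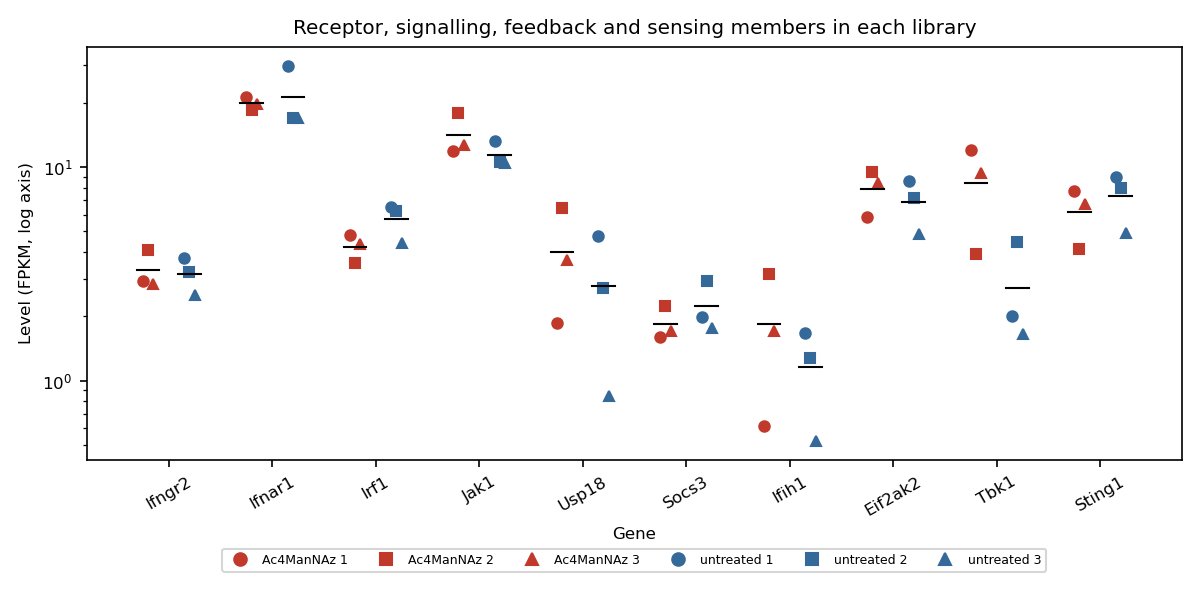
Level in each library (FPKM, log axis) of the 10 receptor, signalling, feedback and sensing genes that had the smallest p-values of their groups, with Ac4ManNAz libraries in red left of untreated libraries in blue. Tbk1 is the gene with the widest gap between group means, at 8.45 against 2.71 FPKM, and Ac4ManNAz replicate 2 lies below untreated replicate 2.

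The largest difference of the 33 was that of Tbk1 (ENSMUSG00000020115, chromosome 10, 121382360 to 121422692 as deposited, in a build that is not given in the sources used here). TBK1 is the kinase on which the RNA and DNA sensing routes converge. It had 12.0, 3.93 and 9.38 FPKM in treated against 2.01, 4.49 and 1.65 FPKM in untreated libraries. The groups overlapped, since Ac4ManNAz replicate 2 lay below untreated replicate 2. Its log2 difference was 1.31 ± 0.42, with a 95% interval from 0.32 to 2.30, an unadjusted limma p of 0.0165 and an adjusted p of 0.9998. The log2 difference ranged from 1.02 without Ac4ManNAz replicate 1 to 1.72 without Ac4ManNAz replicate 2, and the unadjusted limma p from 0.0588 to 0.00201. That p was above 0.05 without Ac4ManNAz replicate 1, untreated replicate 1 (0.0545) or untreated replicate 3 (0.0550). Nearly all of the level came from 1 transcript, Tbk1-201, with 98.2% of the summed mean. The arrangement of libraries was not that of the effectors: Ac4ManNAz replicate 1, low for most of them, was the highest library for Tbk1, and untreated replicate 1, high for most of them, was low.

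Differences of the other sensing genes were smaller. Mavs, the adaptor of the RNA sensors, averaged 6.08 ± 1.04 FPKM in treated and 6.16 ± 0.976 FPKM in untreated cells. Its 2 transcripts went opposite ways, Mavs-202 with a log2 difference of 0.32 and Mavs-201 with -0.69, and neither passed. Mavs-201 was listed at 3.82 FPKM in untreated replicate 1 and at 0.674 to 1.83 FPKM in the other libraries. Mavs-202 was lowest in untreated replicate 1, at 3.22 FPKM. Sting1, the adaptor of cGAS, had 7.73, 4.14 and 6.74 FPKM in treated against 9.01, 7.99 and 4.92 FPKM in untreated libraries, a log2 difference of -0.21 ± 0.27 (95% interval -0.84 to 0.43, unadjusted limma p 0.471). Ikbke, the inducible relative of TBK1, ranged from 0.523 to 1.50 FPKM in treated and from 0.620 to 1.05 FPKM in untreated libraries. Trim25, a ubiquitin ligase that acts on RIG-I signalling, ranged from 0.139 to 1.09 FPKM in treated and from 0.461 to 0.533 FPKM in untreated libraries. Adar, which edits double-stranded RNA and so keeps it from the sensors, averaged 6.09 ± 1.61 FPKM in treated and 5.59 ± 1.03 FPKM in untreated cells.

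The 39 genes had 101 annotated transcripts, of which 44 passed the same filter. limma called 0 of the 44 over all 14846 tested transcripts, where it called 0.0606% of all of them. At an unadjusted p under 0.05 there was 1, Tbk1-201, where 2.54% of all tested transcripts reached that level. Of 8 genes with at least 2 tested transcripts, 5 had transcripts that differed in sign. For Adar, the transcript Adar-202 had 1.94, 4.42 and 3.74 FPKM in treated against 3.91, 2.25 and 1.97 FPKM in untreated libraries, in the order of the effectors. Adar-203 had 1.92, 2.20 and 2.50 FPKM in treated against 2.17, 2.99 and 2.38 FPKM in untreated libraries and did not follow it.

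Some genes share sequence with another gene, which can make their levels less certain. Of all 100-base windows of the most abundant transcript, 31.7% occur also in another gene for Ifit3, most of them in Ifit3b, a neighbouring copy. Ifit3b was listed at 2.53, 8.56 and 5.15 FPKM in treated against 6.78, 4.67 and 1.89 FPKM in untreated libraries, the order of Ifit3. For Ifitm2 the share was 34.9%, for Ifnar2 7.33% and for Ifit1 3.29%, and it was 0 for the other 35 genes. The gene that shared most was Gm45717 for Ifitm2, listed at up to 0.219 FPKM. It was Gm21970 for Ifnar2, at up to 1.12 FPKM, and Ifit1bl2 for Ifit1, at up to 0.101 FPKM. Ifitm2 and Ifitm3 shared no such window with each other.

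A wider set of 129 pathway genes was listed from general knowledge. Of these, 125 were found and 66 tested, and limma called 0 of the 66 with Benjamini-Hochberg adjustment over all genes. An unadjusted p under 0.05 was reached by 0 of them. On the log2 scale, 22 of 30 further induced genes averaged higher in treated cells (median difference 0.17). So did 10 of 22 sensing genes (-0.02) and 9 of 14 signalling genes (0.04). For 1 signalling gene, Irf2bp1, named after its values were seen, the treated libraries lay all below the untreated ones, as for 3.71% of all tested genes. The 3 smallest p-values belonged to G3bp1, a stress granule protein, to Ptpn11, the phosphatase SHP2, and to Tor3a, an interferon-responsive ATPase. G3bp1 had 59.0, 59.8 and 64.9 FPKM in treated against 79.0, 76.1 and 63.4 FPKM in untreated libraries. Ptpn11 had 24.6, 5.14 and 6.50 FPKM in treated against 20.6, 26.7 and 16.7 FPKM in untreated libraries. Tor3a had 3.26, 3.59 and 3.41 FPKM in treated against 3.35, 2.42 and 1.67 FPKM in untreated libraries. In all 3 the groups overlapped. Both library pairs stood at the ends for 8 of the 30 further induced genes, the high pair for 12 and the low pair for 17. Their median deviation was -0.30, 0.35 and 0.19 in Ac4ManNAz replicates 1 to 3, against 0.21, -0.10 and -0.42 in untreated replicates 1 to 3. The highest value of any of 10 interferon ligand genes in any library was 0.131 FPKM, and 0 of the 10 could be tested.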

How the data were processed

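Per the labels' protocols, libraries kept strand and were made after rRNA removal. The deposited table, made by the authors, gives FPKM for 59192 transcripts and 6 libraries; how reads were aligned and quantified, and on which build, is not stated there. It holds no counts. Whole fragments could not be recovered from the values, so depth is unknown and no counting interval is given. A value near 0 may be a failed estimate: Gapdh, used by all cells, was listed under 1 FPKM in 4 of the 6 libraries.

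Groups and replicate numbers came from the sample titles. Transcripts were summed per gene, and log2(FPKM + 1) of the 9925 genes that averaged 1 FPKM or more was tested with limma 3.58.1 in R 4.3.3 (eBayes with trend, group as the only term), Ac4ManNAz minus untreated, two-sided, with Benjamini-Hochberg adjustment at 0.05. The fit was tested on simulated data with shifts larger than that of any tested pathway gene and independent noise per gene. Such data do not measure its power for the smaller differences seen here. The labels do not say whether replicate numbers pair the libraries, so a replicate block was only an alternative. Other alternatives were other pseudocounts, filters, scalings, weights and leaving out each library. Full statistics are given for the 2 tested genes with the smallest p of each functional group. Promoter windows came from RefSeq (GRCm38.p6) and transcript windows from GENCODE M21. Tables were prepared with Python 3.11.15, pandas 2.3.3 and numpy 2.4.6. A planned comparison of the Ifitm2 and Ifitm3 proteins was not run. The genes and lists were chosen with earlier results of these data known.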

Additional observations from a re-analysis of the deposited data

How the results depend on the processing

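limma called 0 of the pathway genes under every alternative run. It called 0 of their transcripts under each alternative that was also run on transcripts, which did not include the other filters or scalings. Over all genes it called 2 with sample quality weights, 4 when each gene was represented by its most abundant transcript, and 0 to 1 with a library left out (1 without Ac4ManNAz replicate 2). Genes at an unadjusted limma p under 0.05 numbered 177 as reported and 2389 with sample quality weights, where pathway genes at that level numbered 1 and 7. That number was 331 with no filter, 459 without untreated replicate 1, 532 without Ac4ManNAz replicate 1 and 120 without untreated replicate 2. The number of pathway genes averaging higher was 14 of 21 with a mean of at least 5 FPKM, where fewer genes are tested, and 12 to 28 with a library left out. Over all tested genes the share averaging higher was 43.4% with that filter and 39% to 57.7% with a library left out. The median difference of the pathway genes was 0.09 to 0.21 under the other alternatives and -0.08 to 0.34 with a library left out. Among single genes, Ifngr2 turned to -0.010 with quantile normalization and -0.077 with sample quality weights, and ranged from -0.091 to 0.14 with a library left out. Ifnar1 turned to 0.14 with sample quality weights and ranged from -0.17 to 0.22. With a library left out Ifih1 ranged from -0.0016 to 0.68, Eif2ak2 from -0.012 to 0.36 and Sting1 from -0.43 to 0.020. In these 5 genes the cause was not tested. The replicate block changed no call: 0 genes were called, 217 had an unadjusted limma p under 0.05, and the Tbk1 difference of 1.31 had an unadjusted limma p of 0.0407. Deviations of same-numbered libraries had correlations of 0.06, 0.02 and 0.26 over tested genes. The value of 0.26, for the libraries numbered 3, was the highest of all pairs. Differently numbered pairs lay between -0.17 and 0.08. Low level limits Irf2, Irf7, Socs1, Dhx58, Ikbke and Trim25 most, since all lay near or under 1 FPKM.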
